A study of Mus musculus with 4 samples.

Results

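Sinus venosus-like and pacemaker-like cardiomyocytes of the mouse embryonic heart are described here in single-cell libraries of wild-type (Wt) and homozygous Cyp51 I383V/I383V (Ho) hearts at E10.5. The cells were selected on 4 of their own genes. A barcode was kept with at least 5 UMIs (unique molecular identifiers, counted mRNA molecules) of Tnnt2 per 10000, under 5 of Myl2 per 10000, and at least 1 UMI of Shox2 and 1 of Vsnl1. These limits chose 1922 of the 28025 cells that passed the filters on depth and mitochondrial share, or 6.86%, out of 33589 deposited barcodes. Since 4 genes chose the cells, genes that vary with these 4 across cells differ from other cells partly by the choice itself, and the calls below against other cells describe what the selection holds.

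Each genotype was represented by 2 libraries, named Wt1, Wt2, Ho1 and Ho2. All 4 came from C57BL/6J embryos, and the labels give CRISPR/Cas9, the method by which the allele was made, for wild-type hearts as well. Ho embryos carried on both alleles a missense change in Cyp51, the sterol 14-demethylase of cholesterol synthesis, and Wt embryos carried none. The allele is germline, so it is present in every cell of the Ho hearts and the selected cells are not its only carriers. Hearts were dissociated enzymatically and red cells were lysed before loading. How many embryos entered a library is not given in the sources used here, and nothing states that the libraries were separate litters, so p-values measure only the spread between these samples.

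The sinus venosus is the inflow end of the embryonic heart tube, and part of its myocardium gives rise to the sinus node, the primary pacemaker of the heart. In this myocardium the homeodomain factor Shox2 and the T-box factors Tbx18 and Tbx3 are known to favour the pacemaker programme, while Nkx2-5 favours working chamber myocardium with its natriuretic peptide Nppa and fast-conducting connexin Gja5. Hcn4 encodes the main channel of the pacemaker current, and Vsnl1, a calcium sensor of the visinin family, marks inflow myocardium.

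Library Wt1 gave 371 of the selected cells, Wt2 gave 382, Ho1 525 and Ho2 644. Summed over them, Wt1 held 5564117 UMIs, Wt2 6499745, Ho1 8848940 and Ho2 11270682, so Wt1 gave the least precise sums. The median depth per cell was 13949 and 15838 UMIs in Wt1 and Wt2 and 15305 and 16554 in Ho1 and Ho2. They were compared with the other 8030 cells holding at least 10 UMIs of Tnnt2 per 10000, and with the 2774 of these that also had under 5 of Myl2, the ventricular light chain, called low-Myl2 cells below. The latter comparison holds the Myl2 limit equal on both sides. The Tnnt2 limit was lower for the selected cells in both comparisons. Of them, 23, 42, 50 and 61 in Wt1, Wt2, Ho1 and Ho2 had under 10 UMIs of Tnnt2 per 10000. The selected cells shared 0 barcodes between any pair of libraries. The caller Scrublet marked 4.31% and 5.76% of them as doublets in Wt1 and Wt2 and 7.05% and 3.26% in Ho1 and Ho2.

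Library Ho1 stood apart in sex. The X-inactivation transcript Xist had 2299 UMIs in the selected cells of Ho1 and 0 in those of the other 3 libraries, and the Y-linked helicase Ddx3y had 0 in Ho1 against 155, 188 and 339 in Wt1, Wt2 and Ho2. Genotype comparisons therefore set 1 library without Y transcripts and 1 with them against a pair with them.

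The genes that chose the cells are given as values without a test. The median cell held 4 and 4.5 UMIs of Shox2 in Wt1 and Wt2 and 4 and 6 in Ho1 and Ho2. For Vsnl1 the medians were 7, 8, 6 and 8 UMIs in the same order. Tnnt2, cardiac troponin T, had a median of 48, 51, 46 and 50.5 UMIs, and the median cell had 0 UMIs of Myl2 in each library. In 4261 endothelial cells (Pecam1, Cdh5 and Emcn each detected, with Tnnt2 under 5 per 10000), which should lack both genes, 1.36% had a UMI of Shox2 and 2.93% one of Vsnl1. Hcn4 took no part in the choice and was read at its borders. Cells just inside the Shox2 limit, with 1 UMI, had 26.4 CPM of Hcn4 (counts of a gene per 1000000 UMIs of the summed cells, here 307 cells). Cells with 0 UMIs of Shox2 had 12.2 (1663 cells). The latter met the same other limits, except that Tnnt2 was at least 10 per 10000, and depth was not matched. At the Vsnl1 limit the order was the other way, with 12.7 CPM of Hcn4 in 83 cells with 1 UMI and 34.5 in 85 cells with 0. Across the Tnnt2 limit Hcn4 was 73.7 CPM just inside (37 cells) and 28.7 just outside (37 cells), and across the Myl2 limit it was 37.6 (21 cells) and 50.8 (15 cells).

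Hcn4, Tbx18 and Smoc2, which took no part in the choice, were higher in the selected cells than in other cardiomyocytes, whereas Tbx3, described below, was not called against low-Myl2 cells. Hcn4 had 87.2 and 65.8 CPM in Wt1 and Wt2 and 59.8 and 90.1 in Ho1 and Ho2, against 9.97 to 12.5 in low-Myl2 cells. All 4 libraries were far above every low-Myl2 sum, with a log2 difference of 2.65 ± 0.08 (standard error; adjusted p 8.8e-10, edgeR quasi-likelihood test with library as a block). Against all other Tnnt2 cells, where Hcn4 had 11.2 to 15.0 CPM, the log2 difference was 2.29 ± 0.11 (adjusted p 7.2e-10, edgeR). A UMI of Hcn4 was found in 55.8% of the selected cells, in 15.9% of low-Myl2 cells, in 19.7% of all other Tnnt2 cells and in 1.36% of endothelial cells. Tbx18, the T-box factor of sinus venosus myocardium, had 29.3 and 32.3 CPM in Wt1 and Wt2 and 39.3 and 58.8 in Ho1 and Ho2, against 4.63 to 10.2 in low-Myl2 cells. Its groups did not overlap and its log2 difference was 2.53 ± 0.08. Smoc2, a secreted matrix protein found in embryonic pacemaker myocardium, had 58.8, 37.1, 31.9 and 101 CPM against 1.13 to 3.12, a log2 difference of 4.90 ± 0.12. The ratio of means was 33.3-fold. Each was detected in a minority of the selected cells, with Tbx18 detected in 28.6% of them against 7.14% of low-Myl2 cells, Smoc2 in 29.6% against 1.73%, and Tbx3 in 22.4% against 16.2%.

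**Figure D1:**
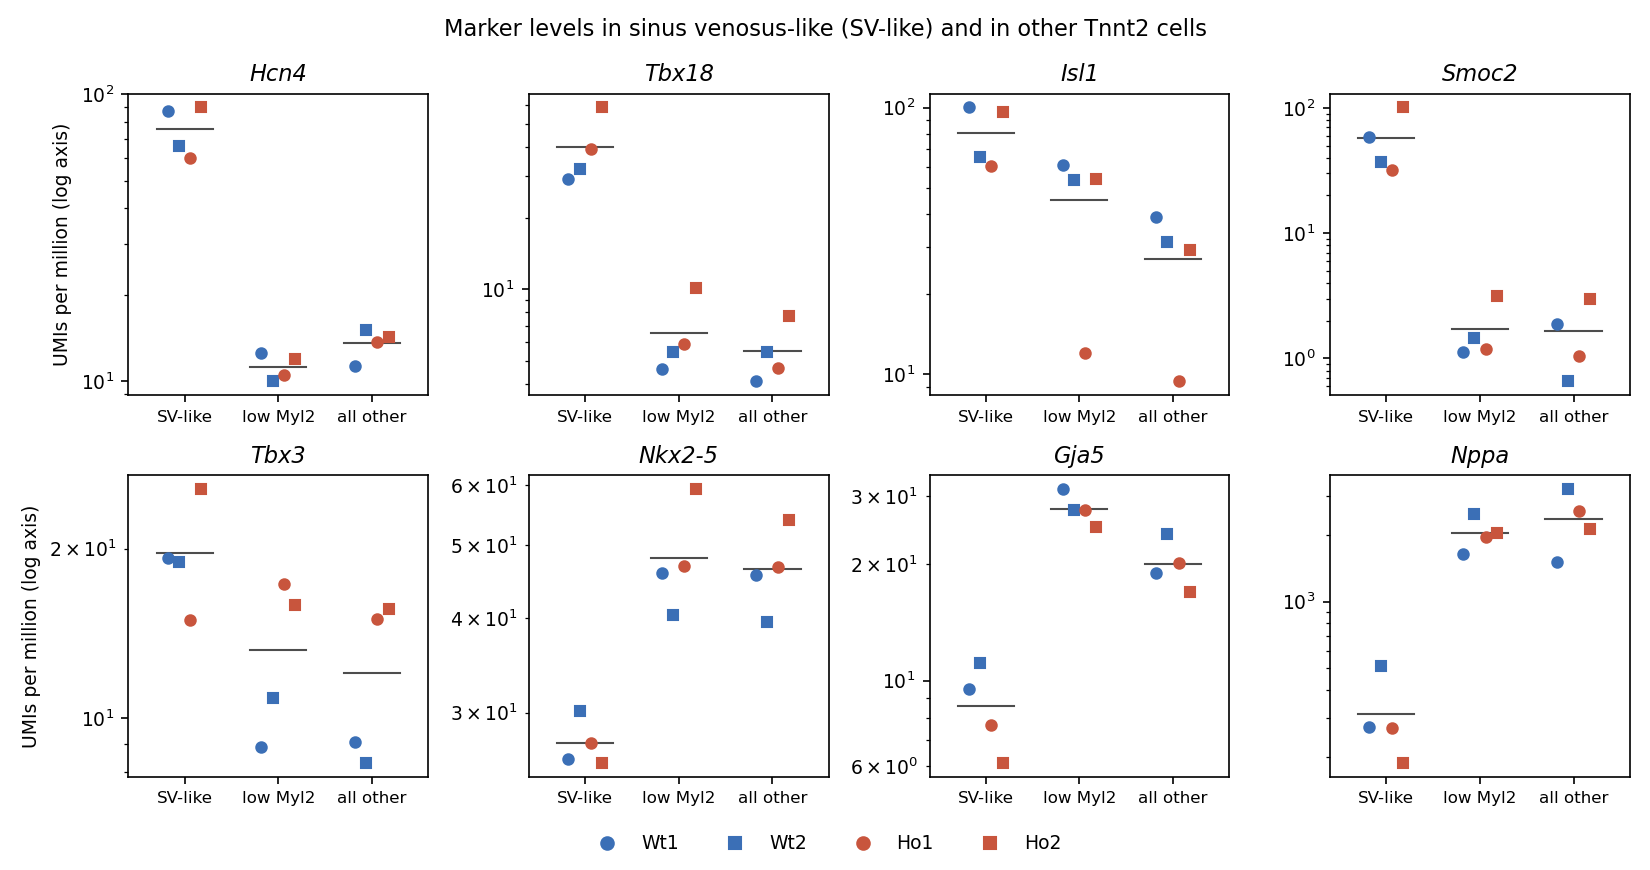
Levels of 8 marker genes in CPM (log axes, 1 per gene) in sinus venosus-like (SV-like) cells, in other Tnnt2 cells with low Myl2 and in all other Tnnt2 cells, with 1 point per library and a line at the mean of the 4 libraries. Hcn4, Tbx18 and Smoc2 lay above both other classes in every library, Nkx2-5, Gja5 and Nppa lay below, and Tbx3 overlapped low-Myl2 cells, where Ho1 had 17.3 against 14.9 in its SV-like cells.

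The sequences before the transcription starts of Shox2, Hcn4 and Nppa are shown because these genes define the selection, its channel and its opposite pole. Each run is the 250 bases upstream of the start in RefSeq on GRCm38.p6, read in the direction of the gene, with a match to AGGTGTGA (the T-box motif, here on the other strand as TCACACCT) in capitals. Shox2 is read from the minus strand at chr3:66981772-66982021, Hcn4 from the plus strand at chr9:58822699-58822948 and Nppa from the plus strand at chr4:148000472-148000721.
Shox2: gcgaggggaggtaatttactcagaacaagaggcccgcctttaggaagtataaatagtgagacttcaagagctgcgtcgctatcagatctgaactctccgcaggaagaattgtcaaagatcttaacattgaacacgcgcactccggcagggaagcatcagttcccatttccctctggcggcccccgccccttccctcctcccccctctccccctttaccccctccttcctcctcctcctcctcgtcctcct
Hcn4: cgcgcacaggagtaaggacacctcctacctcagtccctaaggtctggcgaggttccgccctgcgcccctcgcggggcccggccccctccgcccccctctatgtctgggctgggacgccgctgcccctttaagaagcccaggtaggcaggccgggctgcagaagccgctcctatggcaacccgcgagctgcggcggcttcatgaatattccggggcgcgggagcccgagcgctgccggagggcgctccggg
Nppa: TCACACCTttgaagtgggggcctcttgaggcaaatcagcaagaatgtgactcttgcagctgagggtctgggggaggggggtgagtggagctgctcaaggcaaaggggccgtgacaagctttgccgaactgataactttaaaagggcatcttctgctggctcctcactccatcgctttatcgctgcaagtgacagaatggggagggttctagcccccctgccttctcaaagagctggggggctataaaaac

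The same windows were searched on both strands for AGGTGTGA, for the homeodomain core TAATTA and for the NK2 motif CACTTAA or TCAAGTG. Of 27025 genes with a promoter, 1.30% held the T-box motif, 5.65% the homeodomain core and 5.47% an NK2 motif. Of the genes named for the largest increases against other cells, 11 of 14 had a promoter and 0 held any of these motifs. Of the genes named for the largest decreases, 15 of 17 had one, and Nppa alone held a T-box match, which starts 250 bases before its start site.

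Across all genes, edgeR called 1803 of 12412 genes higher (14.5%) and 2060 lower (16.6%) in the selected cells than in low-Myl2 cells, of which 274 (2.21%) and 267 (2.15%) were also at least 2-fold apart. Against all other Tnnt2 cells 22.6% of 13068 genes were called higher and 25.4% lower. The median log2 difference over all genes tested was 0.00 in both comparisons. Every list below was read against these shares and against that median.

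Among 13 tested transcription factors and signals of the pacemaker programme, 8 were higher and 3 lower than in low-Myl2 cells, with a median log2 difference of 0.29. Isl1, a LIM factor of second heart field and sinus node cells, had 100 and 65.2 CPM in Wt1 and Wt2 and 60.5 and 96.5 in Ho1 and Ho2, against 60.9, 53.4, 12 and 54.3 in low-Myl2 cells. It was higher in each library (log2 difference 0.89 ± 0.21, adjusted p 0.0062 by edgeR), with the widest gap in Ho1, whose low-Myl2 cells stood apart at 12. Without Ho1 the log2 difference was 0.55 and still called, and the call was lost with DESeq2 and without the library block. A UMI of Isl1 was also found in 15.7% of endothelial cells, against 50.3% of the selected cells. Tbx5, a T-box factor of inflow and atria, differed by 0.23 ± 0.07, a call lost with DESeq2, without the library block and without Wt1 (0.16) or Ho2 (0.21). Bmp4, a ligand of the inflow and outflow poles, was higher by 0.75 ± 0.12. Tbx3, a repressor of chamber genes in the conduction system, had 19.2, 18.9, 14.9 and 25.6 CPM against 8.88, 10.9, 17.3 and 15.9. Its log2 difference of 0.45 ± 0.17 did not pass the test (adjusted p 0.058, edgeR), and in Ho1 its level was lower than in low-Myl2 cells. It was called at 0.74 without Ho1 and under 6 other settings, at 0.43 without a filter on low counts, 0.44 with no limit on Vsnl1, 0.50 with Tnnt2 of at least 10 per 10000, 0.54 with Shox2 of at least 2 UMIs, 0.76 without cells holding endothelial or blood UMIs and 0.95 with cells thinned to 2000 UMIs before the selection. Against all other Tnnt2 cells Tbx3 was called higher by 0.53 ± 0.14 (adjusted p 0.0066, edgeR), with 14.9 against 15.0 CPM in Ho1. Tbx2, its relative of the atrioventricular canal, was lower than in low-Myl2 cells by 0.67 on the log2 scale, from 5.93 to 11.3 CPM against 9.76 to 16.8. Nkx2-5 had 26.1, 30.2, 27.3 and 25.7 CPM against 40.3 to 59.3, with no overlap (log2 difference -0.91 ± 0.10).

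Of 16 tested ion channels and exchangers, 4 were higher and 9 lower than in low-Myl2 cells (median -0.24), so the gain was held by few channels. Besides Hcn4, Cacna1d, the pore of the Cav1.3 calcium channel that opens at low voltage in pacemaker cells, had 58.2, 60.6, 65.1 and 52.6 CPM against 24.4 to 32.2, a log2 difference of 0.97 ± 0.08. Cacna2d2, an auxiliary calcium channel subunit, differed by 0.55 ± 0.08. In contrast to Cacna1d, Cacna1c, the pore of the Cav1.2 channel of contracting muscle, had 18.2 to 23.7 CPM against 24.7 to 30.8, a log2 difference of -0.49 ± 0.09. The beta subunit gene Cacnb2 was lower by 0.94 and Kcne1, a potassium channel subunit, by 0.61 on the log2 scale. Smaller differences were called for the T-type channel Cacna1h (-0.33 ± 0.07), the inward rectifier Kcnj5 (-0.45 ± 0.10, and -0.39 without a call when Ho2 was left out) and the sodium-calcium exchanger Slc8a1 (-0.26 ± 0.04, not called when the selection was made at 2000 UMIs per cell).

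Connexins, which couple heart muscle cells, were called lower for 3 of 5 tested genes and higher for 0 (median -0.25). Gja5, the connexin of fast-conducting atrial and trabecular muscle, had 9.53 and 11.1 CPM in Wt1 and Wt2 and 7.68 and 6.12 in Ho1 and Ho2, against 24.9 to 31.3, a log2 difference of -1.81 ± 0.11. Gjc1, the connexin of early and nodal myocardium, had 66.5 to 70.0 CPM against 66.2 to 82.5, a log2 difference of -0.20 ± 0.06, and its call was lost without Wt1 (-0.16) or Wt2 (-0.16), with selection at 2000 UMIs (-0.13), with DESeq2 and without the library block. Gja1 was near its level in low-Myl2 cells, with 5.93 to 7.38 CPM against 6.40 to 8.63, and lower than in all other Tnnt2 cells by 1.80 on the log2 scale. Of 12 calcium cycling genes 1 was higher and 6 were lower. The higher one was Sln, sarcolipin, which restrains the calcium pump and marks atrial-lineage muscle, with 45.1, 32.8, 29.7 and 19.2 CPM against 4.00 to 5.86 (log2 difference 2.44 ± 0.18). Pln, phospholamban, another inhibitor of the pump, was lower by 1.45, the calcium store protein Casq1 by 0.88 and the dyad protein Jph2 by 0.45. Of 14 genes of autonomic signalling 5 were higher and 3 lower. Rgs6, which speeds the end of the vagal signal, had 28.6 to 39.2 CPM against 12.5 to 14.7 (log2 difference 1.20 ± 0.10). The G protein subunit Gnao1 differed by 0.43 ± 0.09 and the receptor Adrb1 by 0.53 ± 0.14, the latter not called with DESeq2 or without Ho2 (0.35).

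**Figure D2:**
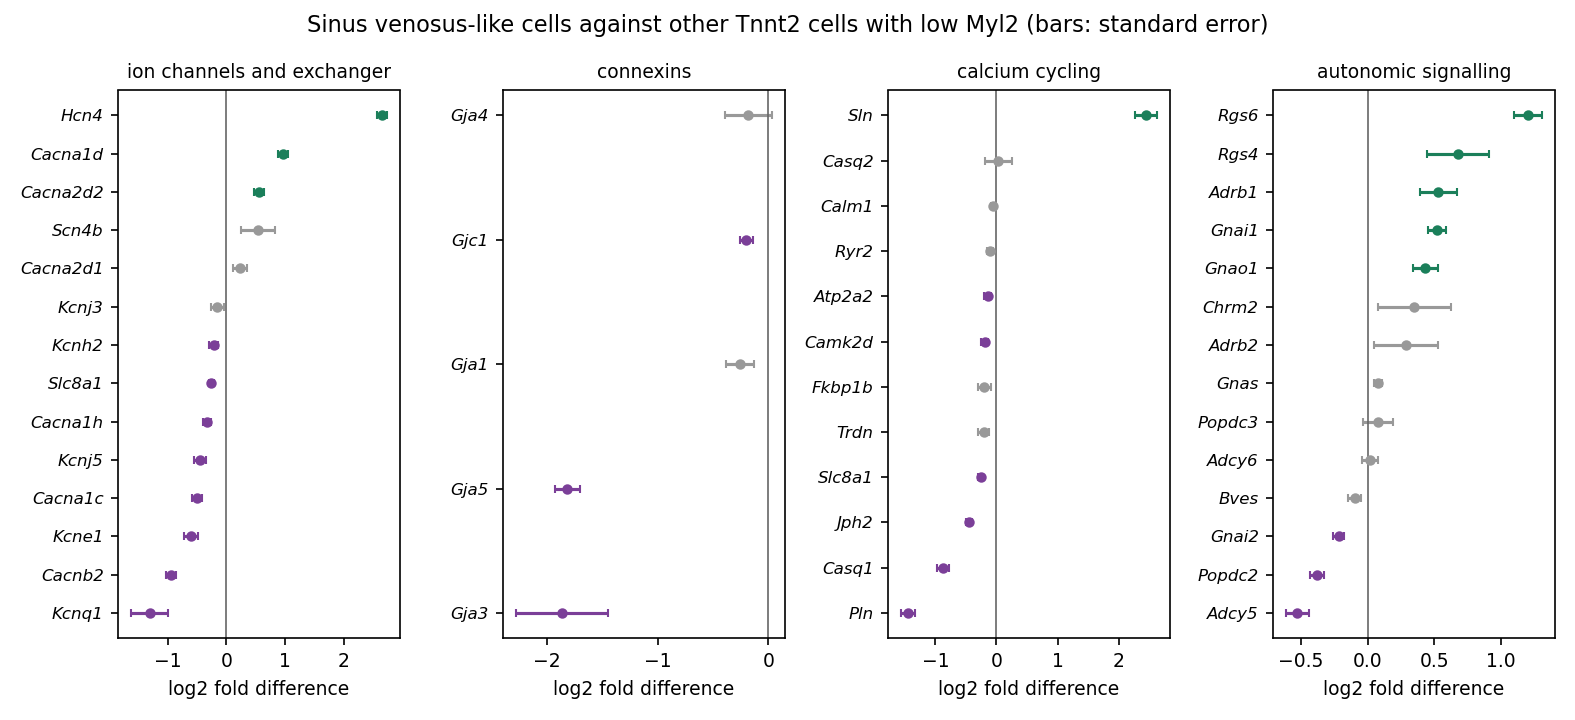
Log2 fold difference of tested ion channel, connexin, calcium cycling and autonomic genes between SV-like cells and other Tnnt2 cells with low Myl2, as the edgeR estimate with its standard error from 4 libraries of each class. Green points were called higher, purple points lower and grey points were not called, and Hcn4 and Sln lie farthest to the right at 2.65 and 2.44, while Gja5 at -1.81 lies far to the left.

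Working chamber genes were lower as a group. Of 15 tested, 12 were lower and 0 higher than in low-Myl2 cells (median -0.78), and against all other Tnnt2 cells 14 of 16 were lower and 1 higher. Both counts of lower genes include Irx4, which had few UMIs in the selected cells and is given below as a level only. Nppa, atrial natriuretic peptide, had 273 and 515 CPM in Wt1 and Wt2 and 268 and 187 in Ho1 and Ho2, against 1631 to 2494 in low-Myl2 cells. The log2 difference was -2.87 ± 0.14, or 6.53-fold lower by the ratio of means. Its UMIs sat in few cells: the 26, 40, 39 and 44 cells with at least 10 UMIs held 89.9%, 92.4%, 83.3% and 85.3% of them in Wt1, Wt2, Ho1 and Ho2. A UMI of Nppa was found in 39.2% of the selected cells and in 29.5% of endothelial cells. Nppb, brain natriuretic peptide, was lower by 1.44 and Smpx, a stretch-responsive muscle protein, by 1.23 on the log2 scale.

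Of 10 ventricular genes 6 were lower than in low-Myl2 cells and 10 than in all other Tnnt2 cells, which unlike the selected cells were not limited on the ventricular gene Myl2. Irx4, a ventricular homeodomain factor, was at 0.180, 0.154, 1.36 and 0.444 CPM (1, 1, 12 and 5 UMIs) against 23.5 to 37.7 in all other Tnnt2 cells, the class through which it passed the filter on low counts. It is therefore given as a level, and its calls, which both counts include, are not read as support. Myh7, the slow myosin heavy chain of ventricles, had 79.3 to 109 CPM against 277 to 618 in low-Myl2 cells, and was lower by 2.48. Of 23 sarcomere genes 19 were lower and 2 higher (median -0.42), Acta1, skeletal alpha-actin, among the lower ones with 97.1 to 139 CPM against 428 to 553. Tnnt2 is itself a sarcomere gene, and its limit was lower for the selected cells. The part of that unequal limit in the sarcomere counts was not tested.

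Atrial genes were mixed, with 4 of 14 higher and 9 lower than in low-Myl2 cells. Nr2f1 and Nr2f2, the COUP factors of atrial identity, were higher by 0.35 ± 0.06 and 0.52 ± 0.06, while Stard10 differed by -0.45 ± 0.07 and the secreted Wnt modulator Dkk3 by -1.36 ± 0.08. Of 8 atrioventricular canal genes 2 were higher and 5 lower, among them the homeodomain factor Msx2 (-1.48 ± 0.15) and the Wnt enhancer Rspo3 (-1.10 ± 0.17). Of 9 outflow genes 3 were higher and 5 lower. Nrp2, a semaphorin co-receptor, had 3.96 to 6.00 CPM against 15.0 to 49.4, and Rgs5 3.16 to 16.6 against 6.27 to 46.5. Both were lowest in Ho1 among low-Myl2 cells, where the outflow genes summed to 138 CPM against 408, 357 and 357 in Wt1, Wt2 and Ho2. In the selected cells the same sum was 368, 324, 265 and 408 CPM. Whether the outflow content of low-Myl2 cells moves the other differences was not tested.

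Genes listed as enriched in the sinus node were higher for 10 of 14 tested and lower for 3 than in low-Myl2 cells, with a median of 1.03. The lower ones were Cpne5 (-0.56 ± 0.09), Podxl (-0.49 ± 0.07) and Unc5b (-0.24 ± 0.06). The list holds Vsnl1, which took part in the choice and was not tested. The sum of the list was 2163 and 2131 CPM in Wt1 and Wt2 and 2111 and 2263 in Ho1 and Ho2. Vsnl1 gave 520, 528, 459 and 523 CPM of it in the same order, so the selection set part of the sum. Igfbp5, a binding protein of insulin-like growth factors, was the most abundant gene of the list. Igfbp5 had 915, 861, 944 and 964 CPM against 206 to 304, a log2 difference of 1.74 ± 0.06. Pdgfra, a growth factor receptor of inflow progenitors, differed by 1.78 ± 0.09, the adhesion molecule Ntm by 1.19 ± 0.15 and the Wnt antagonist Sfrp5 by 1.07 ± 0.15. Slit2, a guidance ligand, had 18.3, 8.31, 7.57 and 11.3 CPM, above the 4.47 to 5.86 of low-Myl2 cells (log2 difference 0.98 ± 0.18) and mostly below the 11.4 to 21.8 of all other Tnnt2 cells (-0.88 ± 0.23), a call lost with DESeq2, with selection at 2000 UMIs and without Wt2 (-0.69) or Ho1 (-0.60).

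Apart from the lists, the genes farthest apart from both classes of other cells were chosen by rank. Of those higher, Calca, the calcitonin gene-related peptide, had 162 and 193 CPM in Wt1 and Wt2 and 182 and 136 in Ho1 and Ho2, against 17.4 to 30.5 in low-Myl2 cells (log2 difference 2.91 ± 0.10). Rec114, a meiotic recombination gene, had 78.7, 64.2, 64.6 and 92.5 CPM against 9.37 to 11.7 (2.74 ± 0.07). The selected cells lay far above in each library for both. Tcf21, a factor of epicardium and pharyngeal mesoderm, was higher by 1.92 ± 0.13, the carboxypeptidase inhibitor Lxn by 1.91 ± 0.09 and the heparin-binding growth factor Ptn by 1.79 ± 0.14. Wnt2, a ligand of the posterior heart pole, was higher by 1.67 ± 0.09, the poly(A) polymerase Tent5a by 1.51 ± 0.09, the Kit ligand gene Kitl by 1.38 ± 0.09 and the activin antagonist Fst by 1.33 ± 0.14. The collagen gene Col1a2 and the imprinted gene Peg10 were named against all other Tnnt2 cells, with log2 differences of 2.09 ± 0.17 and 1.97 ± 0.12.

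Of those lower, Mpped2, a metallophosphoesterase, had 11.6 to 16.3 CPM against 47.5 to 72.1 in low-Myl2 cells and 183 to 222 in all other Tnnt2 cells, with log2 differences of -2.17 ± 0.09 and -4.02 ± 0.08. Col2a1, a fibrillar collagen, differed from low-Myl2 cells by -2.11 ± 0.11, Itm2a by -1.71 ± 0.10, the lipolysis inhibitor G0s2 by -1.47 ± 0.09, Mtus2 by -1.44 ± 0.08, the small heat shock protein Hspb7 by -1.35 ± 0.07 and Pum3 by -1.29 ± 0.08. Named against all other Tnnt2 cells alone were the complement regulator Cd59a (-2.53 ± 0.09), Capn6 (-2.49 ± 0.06), Cited1 (-2.18 ± 0.14), Hopx (-2.15 ± 0.07) and the transglutaminase Tgm2 (-2.10 ± 0.11). Cited1, a transcription cofactor of trabecular muscle, had 70.1 to 91.5 CPM in the selected cells and 66.8 to 95.7 in low-Myl2 cells, which overlapped.

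Markers of other cell types were counted beside these genes. Of 11 tested mesenchyme genes 7 were higher and 2 lower than in low-Myl2 cells (median 0.79). They summed to 446, 537, 592 and 512 CPM in Wt1, Wt2, Ho1 and Ho2, against 257 to 381, and Prrx2 was the most abundant. Of 7 epicardial genes 4 were higher and 0 lower (median 0.62), with sums of 156 to 241 CPM against 46.1 to 86.4 and Tcf21 as the most abundant. Tbx18 and Tcf21 are on that list too, and the defining uroplakin Upk3b was at 12.2 to 20.7 CPM against 1.80 to 12.3. The part of mesenchymal or epicardial RNA in the higher genes was not tested. Of 11 endothelial genes 0 were higher and 2 lower, with sums of 106 to 171 CPM against 116 to 179 and Egfl7 leading. Of 4 epithelial genes 4 were lower, at 57.1 to 99.4 CPM against 102 to 184, with Krt18 leading. Of 3 neural genes 0 were called, at 7.63 to 18 CPM with Tubb3 leading. Of 1 tested macrophage gene 0 were called. The macrophage sum was 0 to 3.19 CPM with Fcer1g leading, and 3 of its genes were at 0. Blood genes summed to 4.13, 6.31, 517 and 8.70 CPM with Hba-x leading, against 4.13, 15.1, 21.5 and 26 in low-Myl2 cells. The selected cells were thus far above low-Myl2 cells in Ho1, where 1 cell held 1971 of the 2041 UMIs of Hba-x, and level with them or lower in the other 3 libraries. Of 3 tested blood genes 2, Hba-x and Hbb-bh1, were called higher with Ho1 in the fit.

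Proliferation and metabolism lists differed in the same comparison. Of 23 cell cycle genes 2 were higher and 10 lower (median -0.11), and against all other Tnnt2 cells 20 were lower. Of 14 genes of glycolysis and hypoxia 10 were lower and 0 higher (median -0.25). In the stress list 7 of 14 genes were higher, all immediate-early genes (Fos, Fosb, Jun, Junb, Atf3, Egr1 and Ier2), and 5 were lower, all heat shock genes (Hspa1a, Hspa1b, Hspb1, Hsp90aa1 and Hspa8). Immediate-early genes are known to respond to tissue dissociation, whose part here was not tested. Of 15 genes of retinoic acid and Wnt signalling 8 were higher and 3 lower (median 0.48). Of 14 genes of BMP and TGF-beta signalling 5 were higher and 5 lower. Of 11 hedgehog genes, the pathway that needs cholesterol for its ligands and receptor, 4 were higher and 0 lower (median 0.40). Of 24 genes of cholesterol synthesis and its control 6 were higher and 2 lower than in low-Myl2 cells (median 0.13), and 18 were higher and 2 lower than in all other Tnnt2 cells (median 0.34). Of 4 tested genes of the sex list 0 were called.

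The selected cells were not uniform. Tbx18 and Nkx2-5 were detected mostly in different cells, with 519 cells holding Tbx18 only, 529 holding Nkx2-5 only, 30 holding both and 844 neither. This split was chosen after values were seen and sorts cells by single UMIs, so it is described without a test. Cells with Tbx18 only were shallower, with median depths of 12527, 14757, 13772 and 16468.5 UMIs against 17685, 19853.5, 19118 and 20341 in Wt1, Wt2, Ho1 and Ho2, and levels were therefore read as CPM. Tbx18-only cells made up 23.2% and 20.4% of the selected cells in Wt1 and Wt2 and 25.7% and 34.2% in Ho1 and Ho2. Hcn4 had 162 and 98.9 CPM in Wt1 and Wt2 and 91.2 and 119 in Ho1 and Ho2 among Tbx18-only cells, against 38.8, 34.4, 39.1 and 48.4 among Nkx2-5-only cells, a 2.94-fold ratio of means. Smoc2 was 18.9-fold, Ptn 7.58-fold, Tcf21 5.46-fold, Col1a2 5.00-fold and Isl1 2.41-fold higher with Tbx18, in 4 of 4 libraries each. Actb was 2.68-fold higher and Tnnt2, a gene of the selection, 1.43-fold lower with Tbx18, also in 4 of 4 libraries. Whether Tbx18-only cells held less cardiomyocyte RNA was not tested. Of the genes higher with Nkx2-5, Cpne5 was at 9.12-fold, Calca at 8.84-fold, Nppa at 7.71-fold and the atrial gene Stard10 at 5.07-fold, again in 4 of 4 libraries. Cpne5 is on the sinus node list above. Calca, which set the selected cells apart from other cardiomyocytes as a whole, was low in Tbx18-only cells, with 12.8 to 37.5 CPM. It had 245 to 257 CPM in Nkx2-5-only cells and 190 to 238 in all cells without Tbx18, which also include those with neither gene. Tbx3 and Tbx5 had ratios of 1.05 and 0.914.

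**Figure D3:**
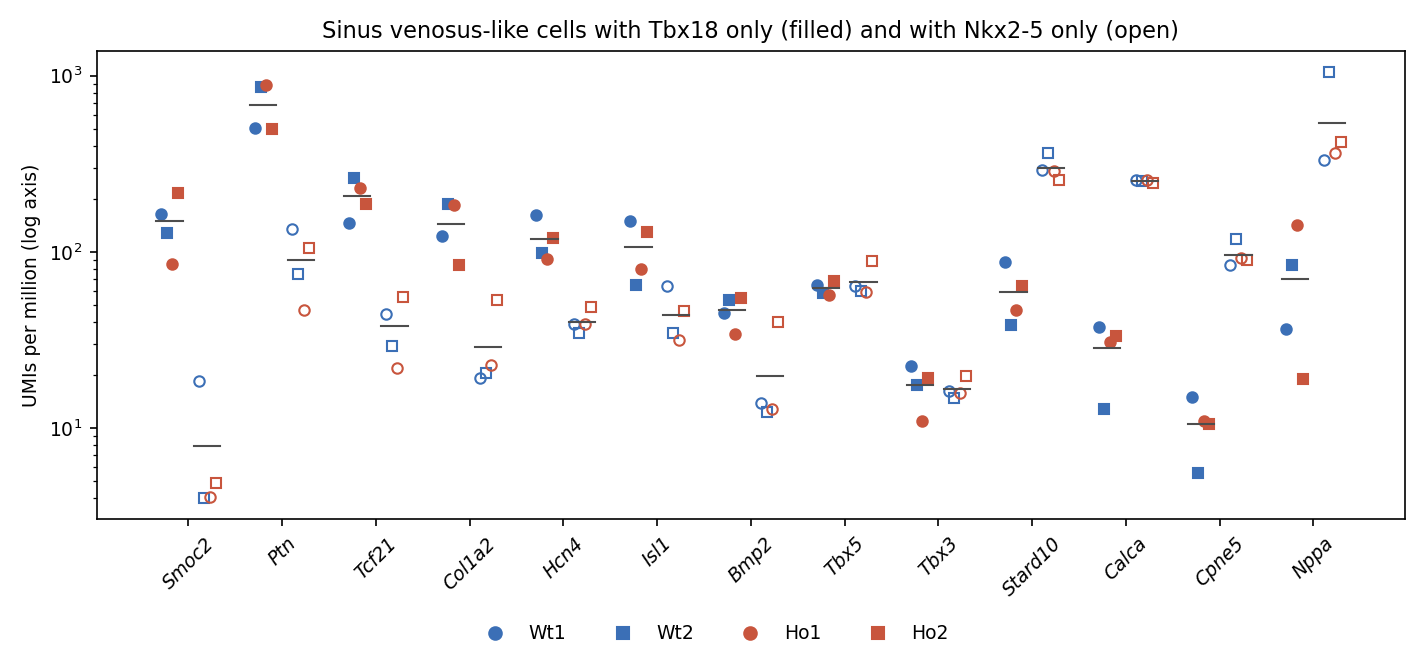
Levels of 13 genes in CPM (log axis) in SV-like cells with a UMI of Tbx18 and none of Nkx2-5 (filled, 519 cells) and with Nkx2-5 and no Tbx18 (open, 529 cells), 1 point per library and a line at the mean. Smoc2, Ptn, Tcf21, Col1a2, Hcn4, Isl1 and Bmp2 lie higher in filled points and Stard10, Calca, Cpne5 and Nppa in open ones in all 4 libraries, while Tbx3 and Tbx5 are mixed.

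Whether the abundance of these cells differed with genotype was asked next. Of the sinus venosus-like and other Tnnt2 cells together, they made up 23.2% in Wt1 (exact 95% binomial interval 21.2 to 25.4), 15.4% in Wt2 (14 to 16.9), 15.2% in Ho1 (14 to 16.5) and 26.6% in Ho2 (24.8 to 28.4). Each genotype thus had 1 high and 1 low library, with 19.3% ± 5.54 in Wt libraries and 20.9% ± 8.04 in Ho libraries (SD, n = 2 each; exact two-sided permutation p 1). Among all filtered cells both Ho libraries were higher, with 7.57% and 10.8% against 4.48% and 5.58%, or 9.18% ± 2.27 against 5.03% ± 0.782 (SD, n = 2 each). The exact permutation p of 0.33 is the smallest that 2 libraries against 2 allow. All Tnnt2 cells were also a larger share in both Ho libraries, with 49.1% and 39.6% in Ho1 and Ho2 against 19% and 35.6% in Wt1 and Wt2, or 44.3% ± 6.72 against 27.3% ± 11.8 (SD, n = 2 each; exact permutation p 0.33), so there the genotype and the cardiomyocyte share of a library cannot be told apart. After thinning each cell to 2000 UMIs before the selection, the share among Tnnt2 cells was 6.36% in Wt and 6.98% in Ho.

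**Figure D4:**
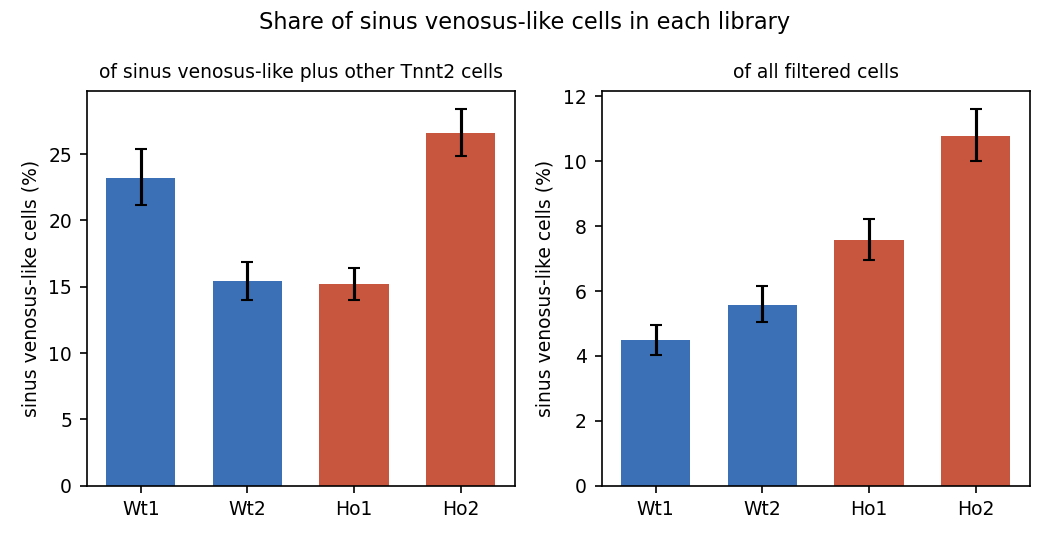
Sinus venosus-like cells in percent of these plus other Tnnt2 cells (left) and of all filtered cells (right) in each library, as bars with exact 95% binomial intervals that cover counting error only. On the left each genotype has 1 library near 15% and 1 above 23%, and on the right both Ho libraries, 7.57% and 10.8%, exceed both Wt libraries.

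Between Ho and Wt sinus venosus-like cells, edgeR called 1 of 12137 genes (0.00824%), and 576 had an unadjusted p under 0.05. The gene called was Pf4, a platelet and macrophage chemokine, with 0.359 and 0.769 CPM in Wt1 and Wt2 and 68.1 and 195 in Ho1 and Ho2 (log2 difference 7.80 ± 0.67, adjusted p 0.0041, edgeR). In Ho2 1 cell held 2200 of its 2201 UMIs, and in Ho1 a pair of cells held 299 and 292 of 603. Leaving out the 5 cells with at least 10 UMIs of Pf4 or of blood genes, 4 in Ho1 and 1 in Ho2, ended the call and left 0 genes called.

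Cyp51 itself had 97.1 and 87.4 CPM in Wt1 and Wt2 and 87.7 and 94.0 in Ho1 and Ho2 (log2 difference -0.01 ± 0.10). The genotypes overlapped, and since the allele is a missense change and reads come from transcript ends, its level does not check the labels. Hcn4 differed by -0.02 ± 0.18, Isl1 by -0.07 ± 0.22, Tbx3 by 0.11 ± 0.21, Tbx5 by 0.16 ± 0.14, Nkx2-5 by -0.08 ± 0.13 and Cacna1d by -0.00 ± 0.13, with overlapping libraries in each case. The hedgehog readouts Gli1 (1.08, 1.54, 0.339 and 1.95 CPM) and Ptch1 (18.5, 18.8, 17.3 and 21.6 CPM) overlapped as well, with log2 differences of -0.11 ± 0.65 and 0.08 ± 0.14. At its level, Gli1 could not be resolved at this depth.

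Tbx18, Nppa and Gja5 had non-overlapping genotypes without passing the test. Tbx18 was 30.8 ± 2.13 CPM in Wt libraries and 49.1 ± 13.8 in Ho libraries (SD, n = 2 each), with a log2 difference of 0.68 ± 0.17 (adjusted p 0.90, edgeR), which was 0.39 without Ho2 and was called at 0.91 without Ho1. Nppa, nearly level in Wt1 and Ho1 at 273 and 268 CPM, had a log2 difference of -0.77 ± 0.25 and Gja5 of -0.58 ± 0.21 (adjusted p 0.99 for each, edgeR). For Nppa it was -0.27 without Wt2, -0.51 without Ho2, -1.09 without Ho1 and -1.14 without Wt1, none of them called, and for Gja5 it ran from -0.77 without Ho1 to -0.39 without Ho2. Without a filter on low counts, Tbx18 and Nppa were called at 0.69 and -0.77. Tbx18-only cells, low in Nppa, took the larger shares in Ho given above. Since a UMI of Tbx18 defines that class, its share restates the level of Tbx18 and says nothing further about that gene. Within the class Tbx18 had 122 and 154 CPM in Wt1 and Wt2 and 158 and 168 in Ho1 and Ho2, which rest on the same UMIs. Within Nkx2-5-only cells Nppa had 332 and 1047 CPM in Wt1 and Wt2 against 362 and 422 in Ho1 and Ho2, where the genotypes overlapped. The part of this mixture in the differences was not tested. Of all genes tested, 15.3% had the Ho libraries both higher than either Wt library and 17.6% had them both lower. In each of the lists named above 0 genes were called between the genotypes. Of 13 pacemaker factors, 3 had Ho entirely above Wt and 0 entirely below, and of 15 channels 5 and 1 did so. Of 23 sarcomere genes 0 had both Ho libraries above and 9 below (median -0.10). Of 14 stress genes the counts were 0 and 7 (median -0.07), and of 14 BMP and TGF-beta genes 5 and 0 (median 0.10). Of 24 cholesterol genes the counts were 7 and 2 (median 0.03), and of 11 hedgehog genes 1 and 0 (median 0.03).

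The genes with the lowest p after Pf4 are given as values, since none passed (adjusted p 0.62 or above, edgeR). Hes1, a Notch target and transcriptional repressor, had 30.9 and 45.7 CPM in Wt1 and Wt2 and 65.7 and 67.8 in Ho1 and Ho2 (log2 difference 0.81 ± 0.15), and in other Tnnt2 cells 42.6, 41.0, 50.7 and 40.2. The RNA helicase Ddx3x, the organelle biogenesis subunit Bloc1s1, Wsb1 and the exchanger Slc24a5 differed by 0.48 ± 0.10, 0.49 ± 0.11, 0.42 ± 0.10 and 0.46 ± 0.11. Ddx3x is X-linked, and Ho1, the only Ho library in the fit without Ho2, held Xist and no Y transcripts. The part of sex in the difference of Ddx3x was not tested. Eno1, the glycolytic enolase, had 539, 480, 366 and 372 CPM (-0.45 ± 0.10). Rpl9-ps6, Nutf2-ps1 and Gm11808, at 0.55 ± 0.11, 0.52 ± 0.12 and 0.52 ± 0.13, may share reads with near-identical copies, and their values are uncertain. Without Ho2, Hes1 (0.81), Ddx3x (0.54), Bloc1s1 (0.59), Rpl9-ps6 (0.61), Nutf2-ps1 (0.62) and Gm11808 (0.69) were called, and without a filter on low counts these and Eno1 were.

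Whether the genotype difference of a gene was unlike that in other Tnnt2 cells was tested as an interaction. The test called 5 of 13668 genes (0.0366%), and 906 had an unadjusted p under 0.05. Nppa had 273, 515, 268 and 187 CPM in sinus venosus-like cells of Wt1, Wt2, Ho1 and Ho2, a genotype difference that did not itself pass, and 1507, 3221, 2565 and 2133 in other Tnnt2 cells, where the genotypes overlapped (log2 difference of differences -0.82 ± 0.09, adjusted p 0.0015, edgeR). For the other 4 genes the genotype means lay closer together in sinus venosus-like than in other cells. Cacna2d2 had 109, 107, 110 and 113 CPM in sinus venosus-like cells and 54.1, 44.0, 77.9 and 77.4 in other cells (-0.64 ± 0.10, adjusted p 0.016, edgeR). Fosb, an immediate-early gene, had 92.7, 87.7, 79.4 and 80.7 CPM against 48.9, 45, 64.9 and 65.8 (-0.65 ± 0.09, adjusted p 0.012, edgeR). Bmp4 had 173, 164, 128 and 230 CPM against 88.8, 70.8, 34.9 and 67.5 (0.72 ± 0.09, adjusted p 0.0030, edgeR). Pmp22, a membrane protein of growth-arrested cells, had 57.2, 55.1, 37.9 and 73.8 CPM against 43.5, 42.3, 17.0 and 34.8 (0.73 ± 0.11, adjusted p 0.015, edgeR). Ho1 was lowest in both classes for Bmp4 and Pmp22. The other Tnnt2 cells also differed in make-up, with low-Myl2 cells at 42.7% and 35.9% of them in Wt1 and Wt2 and 28.2% and 37.8% in Ho1 and Ho2. The 9 outflow genes, of which Bmp4 is the most abundant, summed there to 316, 259, 156 and 261 CPM, lowest in Ho1 as well. The part of this make-up, and of the Tbx18-only share among the selected cells, in the 5 calls was not tested. All 5 calls were lost without Wt1 (adjusted p 0.104 to 0.190, edgeR) and without the library block, with folds of similar size. They were also lost when cells with at least 2 UMIs of endothelial or of blood genes were left out, which kept 254, 216, 290 and 390 sinus venosus-like cells. There the log2 values were -0.94 for Nppa, 0.82 for Pmp22, -0.58 for Cacna2d2, 0.52 for Bmp4 and -0.41 for Fosb. Nppa and Bmp4 were called by DESeq2 and without Wt2, whereas Fosb, Cacna2d2 and Pmp22 were not (adjusted p 0.062, 0.062 and 0.19 by DESeq2, and 0.080, 0.18 and 0.11 by edgeR without Wt2).

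**Figure D5:**
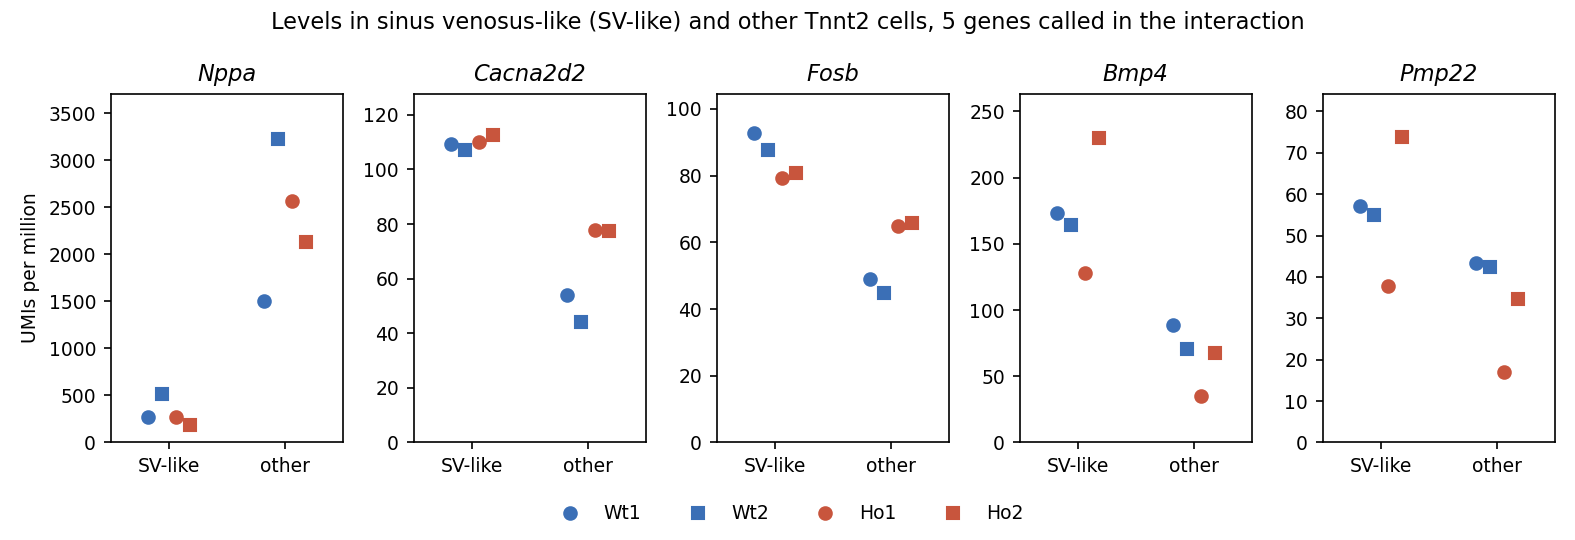
Levels in CPM (linear axes from 0, 1 per gene) of the 5 genes called in the interaction, in SV-like and other Tnnt2 cells, with 1 point per library. Nppa in SV-like cells is 273 and 515 in Wt and 268 and 187 in Ho, Cacna2d2 and Fosb are near 110 and 80 to 93 in SV-like cells of every library while Ho lies above Wt in other cells, and Ho1 is lowest for Bmp4 and Pmp22.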

How the data were processed

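Hearts of E10.5 mouse embryos were measured by 10x Chromium 3′ single-cell RNA sequencing in 2 Wt and 2 Ho libraries, grouped by their labels. Per the labels and methods, the authors aligned reads to mm10 (GRCm38) with Cell Ranger 6.1.1, analysed them in Seurat 4.1.0 and deposited raw UMI counts of 32285 genes, unnormalized. With 7058 to 10320 barcodes per library, these are matrices from which most empty droplets had already been taken out, while barcodes beyond the study's limits on genes per cell were still present. The libraries held 109893733 (Wt1), 117034633 (Wt2), 127018819 (Ho1) and 107377100 (Ho2) UMIs.

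Barcodes with 500 to 6000 genes, 2000 to 50000 UMIs and at most 20% mitochondrial UMIs were kept in Python 3.11.15, where the study kept from 500 UMIs. Doublets were marked with Scrublet (scanpy 1.11.5) and kept, with their removal as an alternative. Cells are not replicates, so UMI counts were summed per library and class and compared with edgeR 4.0.16 in R 4.3.3 (quasi-likelihood, TMM, filterByExpr, Benjamini-Hochberg at 0.05 over all genes tested), with library as a block between classes. CPM are counts per 1000000 UMIs of the summed cells, and reads from transcript ends make levels of different genes not comparable. Standard errors are the log2 difference divided by the root of its F statistic. The 4 genes of the selection were taken out before adjustment. Intervals are Clopper-Pearson and, since they cover counting error only, say nothing of the spread between embryos.

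The selection and the 27 gene lists (pacemaker factors and channels, connexins, calcium cycling, autonomic, sinus node, chamber, atrial, ventricular, canal, outflow, sarcomere, signalling, metabolic, stress, sex and other cell types) were chosen with earlier results of these data known. Named were the list genes, the 12 genes farthest apart in each direction with at least 50 CPM in the higher class and 1 direction in all 4 libraries, a set of fixed genes and the 10 of lowest p between genotypes, and the interaction calls. Promoters were RefSeq windows on GRCm38.p6. Alternatives were other limits of the selection, thinning, RLE, DESeq2 1.42.0, other filters, blocks and each library left out. The fits were tested on simulated data. Whole reads, alignments and cell types other than those above were not used here. Some genes counted in the lists are not reported here by name.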

Additional observations from a re-analysis of the deposited data

Results flagged for a closer look

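For 5 genes the difference between Ho and Wt was unlike in sinus venosus-like and other Tnnt2 cells by edgeR's interaction test, and each value below is the log2 genotype difference in the former minus that in the latter. It was -0.825 for Nppa, -0.651 for Fosb and -0.637 for Cacna2d2, and 0.730 for Pmp22 and 0.724 for Bmp4. With 2 libraries per genotype, no library could be tested as an outlier. All 5 were no longer called without Wt1, and Fosb, Cacna2d2 and Pmp22 were not called without Wt2 or by DESeq2.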

How the results depend on the processing

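Between genotypes 0 genes were called with Tnnt2 of at least 10 per 10000, with Shox2 of at least 2 UMIs, without doublets, without cells holding endothelial or blood UMIs, without Pf4 or blood cells (chosen after seeing the data) and with at least 10 UMIs in every sum. Selection at 2000 UMIs called 1 gene, Wdr89, and not Pf4. DESeq2 called 2, no filter on low counts 115, and leaving out single libraries 1 to 58 (41 without Ho1 and 58 without Ho2, where the lone sample is assumed to vary like the others). With a replicate block 2 genes were called (Pf4 and Hbb-bh1), but same-numbered libraries did not deviate together (r -0.0462 across 12137 genes), so they share only a number. Against low-Myl2 cells DESeq2 called 1868 genes and the fit without the library block 2419, against 3863. Against all other Tnnt2 cells the counts, from 4395 (DESeq2) to 6686 (no filter on low counts), were within 1.5 times the 6281 reported. The interaction gave 11 calls with Tnnt2 of at least 10 per 10000 and 11 without doublets, 3 each with Myl2 under 2 per 10000, selection at 2000 UMIs, Shox2 of at least 2 UMIs or no limit on Vsnl1, 0 without endothelial or blood UMIs and 0 without the library block, 4 with DESeq2 (2 of them among the 5 reported), 40 in thinned sums, 95 without a filter, 15 with at least 10 UMIs in every sum and 0 to 133 with single libraries left out (0 without Wt1, and 15 without Wt2, of which 2 were among the 5). Selection at 2000 UMIs kept 2 of the 5 calls (Nppa and Bmp4), and Myl2 under 2 per 10000, Shox2 of at least 2 UMIs and no limit on Vsnl1 kept 3 each (also Fosb). The share of sinus venosus-like cells differed by 1.58 percentage points, and from -4.11 to 7.26 with single libraries left out.

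Genotype differences near 0 changed sign. Cacna1d was 0.00967 with no limit on Vsnl1, 0.00454 without doublets, 0.000192 with at most 10% mitochondrial UMIs, 0.0118 without endothelial or blood UMIs, 0.0003 without a filter and -0.196 to 0.172 with single libraries left out. Cyp51 was 0.00173 with no limit on Vsnl1, 0.0426 in thinned sums and -0.110 to 0.0859 with single libraries left out. Hcn4 was 0.0907 with selection at 2000 UMIs, 0.0175 with no limit on Vsnl1, 0.00438 in thinned sums and -0.311 to 0.221 with single libraries left out. Isl1 was 0.0202 with Tnnt2 of at least 10 per 10000, 0.114 without endothelial or blood UMIs and -0.408 to 0.294 with single libraries left out. Tbx3 was -0.0479 with Shox2 of at least 2 UMIs, -0.0140 without endothelial or blood UMIs and -0.312 to 0.402 with single libraries left out, and Ptch1 was -0.0404 without endothelial or blood UMIs and -0.0672 to 0.190 with single libraries left out. With single libraries left out Gli1 ran from -0.327 to 0.536, Nkx2-5 from -0.155 to 0.0117 and Tbx5 from -0.0561 to 0.347. Of 2266 values of named genes under the alternatives, 2163 kept their direction and side of the threshold, among them 584 of 588 against all other Tnnt2 cells, 1155 of 1177 against low-Myl2 cells and 65 of 95 in the interaction. The causes were not tested.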

Other observations

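Genes near Hcn4 and Shox2 on the chromosome were looked at after Rec114 and Lxn had been seen among the genes farthest apart. Rec114 starts 79.4 kb from Hcn4 on chromosome 9 (GENCODE vM21, GRCm38), at chr9:58652850-58743964 on the minus strand, while Hcn4 lies at chr9:58823412-58863175 on the plus strand. Of 11 genes within 500 kb of Hcn4, 6 were tested against low-Myl2 cells, and 2 were higher and 0 lower: Rec114 with a log2 difference of 2.74 and the adhesion molecule Nptn with 0.65. Of 5 genes within 500 kb of Shox2 on chromosome 3, 4 were tested, and 2 were higher and 1 lower. Over all genes tested 14.5% were higher and 16.6% lower, and since each count includes the gene that prompted the look, nothing is read from the counts. Rsrc1, a splicing factor gene that starts 0.381 kb from Shox2, differed by 1.00, Lxn at 482 kb by 1.91 and Gfm1 by -0.30.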
